A study of Mus musculus with 6 samples.

Results

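The genes described here encode 4 receptor tyrosine kinases of stem and progenitor cells, Kit, Flt3, Tek and Tie1, and 4 ligands, Kitl, Flt3l, Angpt1 and Angpt2. They were picked by symbol through the Entrez Gene number of each probe set, and all 8 were found among the 23185 named genes of 25206 probe sets. The study measured expression on 6 GeneChip Mouse Gene 2.0 ST arrays, 3 of Merit40-/- and 3 of wild-type (WT) hematopoietic stem cells (HSCs). Merit40, the product of Babam1, is a subunit of 2 deubiquitinase assemblies, BRISC and BRCA1-A. The cells of both genotypes were untreated, came fresh from the bone marrow of young mice and were double sorted as CD150+CD48-LSK cells, where LSK stands for lineage-negative, Sca-1+ and c-Kit+. The titles call the arrays of each genotype biological replicates. The labels do not give the number of mice behind an array, so p-values measure the spread between these arrays. How the Merit40-/- allele was made is not given either. The comparison asks whether loss of Merit40 changes the transcripts of these growth factor systems in untreated, freshly sorted stem cells.

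KIT, the receptor for stem cell factor (the product of Kitl), keeps HSCs alive and sets how readily they divide. In the marrow stem cell factor is made mainly by stromal and endothelial niche cells. FLT3 is a related receptor that marks multipotent and lymphoid-primed progenitors rather than long-term HSCs, and its ligand is made by many cells, lymphocytes among them. TIE2, encoded by Tek, is a receptor of endothelial cells that is also found on HSCs. Angiopoietin-1 activates it, angiopoietin-2 is a weak or context-dependent agonist, and TIE1 is a partner receptor that binds no angiopoietin strongly on its own.

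Values are log2 expression as deposited, and a difference of 1 is a 2-fold change. Levels of different genes are not compared as amounts of transcript; the median level of all named genes, 4.93, serves as a mark of low signal. Array medians lay between 4.91 and 4.97. Babam1 read 4.29, 3.87 and 4.01 on the Merit40-/- arrays, against 7.91, 8.04 and 8.05 on the WT arrays (difference -3.94, SE 0.14, adjusted p = 5.04e-05 in limma, 3 of 3 arrays lower). Skeletal muscle markers stood apart on Merit40-/- replicate 1, where the 14 measured ones averaged 7.96 against 4.74 to 4.99 on the other arrays, and 12 of them were at their highest. On Merit40-/- replicate 3 the osteoclast protease gene Ctsk read 7.94 and the phosphatase gene Acp5 7.91, against at most 3.89 and 5.19 elsewhere. The 8 osteoclast markers averaged 5.47 there against 4.19 to 4.34 elsewhere, but 3 of them, Dcstamp, Calcr and Nfatc1, were not at their highest on that array. Values without these arrays are given where they alter a result on the receptor and ligand genes or the genes around them, but not for the markers. The 7 measured HSC markers other than Kit all lay above the low-signal mark. In whole-population arrays such as these, fewer cells of a type and less RNA per cell cannot be told apart.

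None of the 8 receptor and ligand genes passed the test between genotypes. Of all 23185 named genes, 0.00431% passed at an adjusted p under 0.05 in limma, which was Babam1 alone, and 4.22% had an unadjusted p under 0.05. Of the 8 genes, 0 passed at either threshold. Their differences, Merit40-/- minus WT, ran from -0.16 for Tek to 0.21 for Tie1, with a median of 0.029 against 0.0052 over all named genes. The 95% interval of every one of the 8 differences lay within a 2-fold change in either direction. For Kitl, far below the low-signal mark, the interval does not bound the change of the transcript. With 4 of 8 means higher in Merit40-/- cells, the direction was evenly split, against 51.5% of all named genes.

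**Figure D1:**
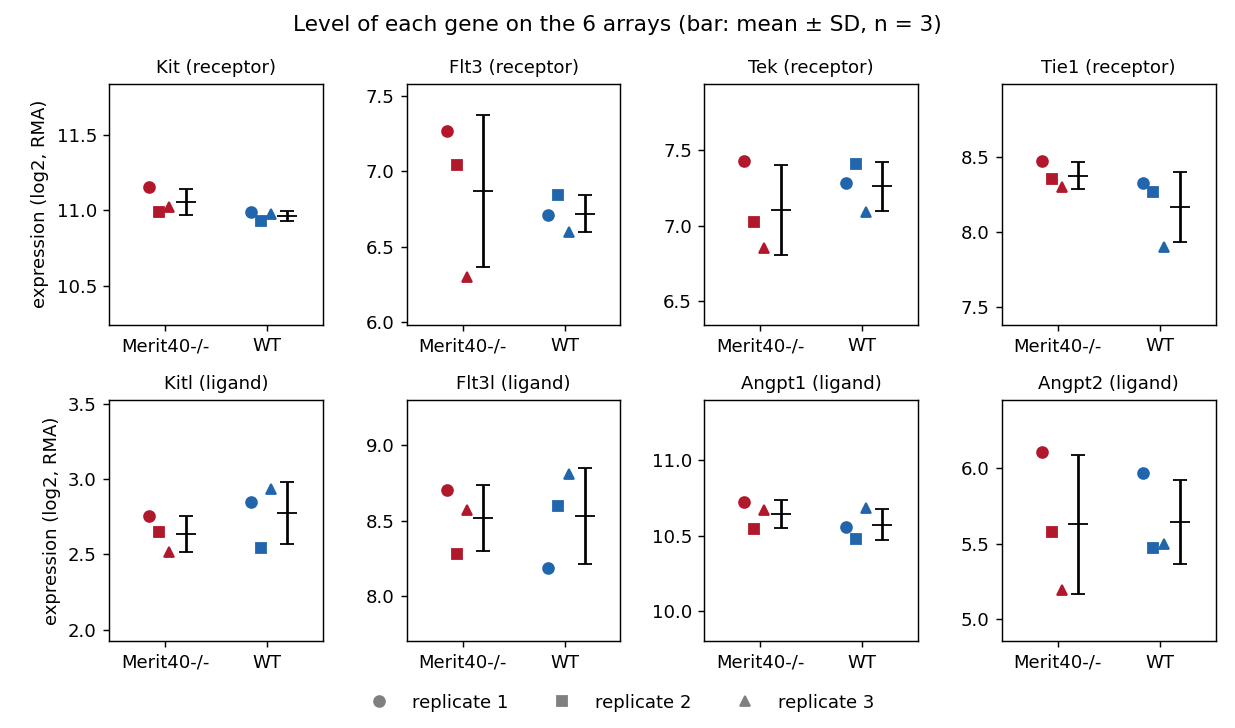
Log2 expression (y axis, the same span in every panel) of the 4 receptor genes (top) and 4 ligand genes (bottom) on the Merit40-/- arrays (red) and the WT arrays (blue), with symbols for replicates and bars for the mean ± SD of 3 arrays. The genotypes overlap in every panel but that of Kit, where the lowest Merit40-/- value (10.9905) and the highest WT value (10.9903) nearly touch.

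Kit (Entrez Gene 16590, chr5:75574987-75656722 in GRCm38.p6) encodes the c-Kit receptor, the antigen by which the cells of both genotypes were sorted, so a high level in these cells is no finding. It read 11.16, 10.99 and 11.02 on the Merit40-/- arrays, against 10.99, 10.93 and 10.97 on the WT arrays. It was the steadiest of the 8 genes, and its spread within genotypes stood at the 4.08th percentile of all named genes. The Merit40-/- arrays all lay above the WT arrays, but the nearest values, 10.9905 in Merit40-/- and 10.9903 in WT cells, all but met. Kit was the 1 gene of 8 whose arrays did not overlap, where 9.05% of all named genes did not. Its level was 11.06 ± 0.088 in Merit40-/- and 10.96 ± 0.033 in WT cells (SD, n = 3 each). The difference was 0.092 (SE 0.11, 95% interval -0.17 to 0.35, adjusted p = 0.999 in limma). That interval allows at most a 1.27-fold change. Without Merit40-/- replicate 1, the array with muscle markers, the difference was 0.042. By exact permutation of the arrays (2-sided) p was 0.1, the lowest that 3 arrays against 3 can reach.

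Kitl (Entrez Gene 17311, chr10:100015615-100100416), the gene of stem cell factor, lay far below the low-signal mark in every array. It read 2.75, 2.65 and 2.51 in Merit40-/- and 2.85, 2.54 and 2.93 in WT cells. The groups overlapped, with a difference of -0.14 (SE 0.14, 95% interval -0.47 to 0.19), and it ranged from -0.25 to -0.059 with 1 array left out. Log2 values this low are compressed, so the interval does not bound the change of the transcript. The receptor gene was thus read well above the mark and its ligand gene below it in both genotypes.

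Flt3 (Entrez Gene 14255, chr5:147330741-147400489) was the most scattered receptor gene. It read 7.27, 7.04 and 6.30 in Merit40-/- cells, against 6.71, 6.85 and 6.60 in WT cells. Merit40-/- replicates 1 and 2 lay above all WT arrays and replicate 3, the array with high Ctsk and Acp5, lay below them. Its means were 6.87 ± 0.51 in Merit40-/- and 6.72 ± 0.12 in WT cells (SD, n = 3 each), a difference of 0.15 (SE 0.24, 95% interval -0.39 to 0.69, adjusted p = 0.999 in limma). Without Merit40-/- replicate 3 the difference was 0.43, at an unadjusted p of 0.0209 and an adjusted p of 0.986 in limma. Without Merit40-/- replicate 1, the array with muscle markers, it was -0.048. The part of those transcripts in the scatter of Flt3 was not tested.

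Promoter sequences are shown for Kit and Flt3, the receptor genes with the least and the most spread within genotypes. Each is the stretch of 250 bases before the gene's first annotated base in RefSeq (GRCm38.p6), printed along the gene's own strand, at chr5:75574737-75574986 (plus strand) for Kit and chr5:147400490-147400739 (minus strand) for Flt3. Capitals mark matches, on either strand, to TATAAA (the TATA box), GATAA (GATA factors), CCGGAA (ETS factors), GGGCGG (the GC box) and CACGTG (an E-box).
Kit: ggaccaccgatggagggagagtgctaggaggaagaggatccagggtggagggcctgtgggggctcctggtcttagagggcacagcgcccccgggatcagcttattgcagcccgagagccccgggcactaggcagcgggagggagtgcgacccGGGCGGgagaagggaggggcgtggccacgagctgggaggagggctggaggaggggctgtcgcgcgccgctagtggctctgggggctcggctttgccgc
Flt3: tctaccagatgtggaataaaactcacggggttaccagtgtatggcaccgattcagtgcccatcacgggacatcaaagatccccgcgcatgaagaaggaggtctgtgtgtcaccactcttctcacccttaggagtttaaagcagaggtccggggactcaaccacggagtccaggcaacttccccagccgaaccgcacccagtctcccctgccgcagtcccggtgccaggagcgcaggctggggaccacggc
The Kit stretch held 1 GC box and none of the other motifs, and that of Flt3 held none of the 5. Over all 32851 promoter stretches of the same length, 32.7% held a GC box, 12.4% a TATA box, 12.0% an ETS match, 22.6% a GATA match and 6.02% the E-box. The share of G and C was 70.8% for Kit and 59.2% for Flt3, against a median of 52.4% over all stretches. Promoter sequences were matched for 6 of the 8 genes, and in 3 of these, Kit, Flt3 and Tie1, the stretch lay wholly before the gene. That of Tie1 held none of the 5 motifs.

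Flt3l (Entrez Gene 14256, chr7:45131183-45136490), the gene of the FLT3 ligand, was read well above the low-signal mark. Its values were 8.70, 8.28 and 8.57 in Merit40-/- and 8.19, 8.59 and 8.81 in WT cells. The WT arrays enclosed the Merit40-/- arrays, and the means, 8.52 ± 0.22 in Merit40-/- and 8.53 ± 0.32 in WT cells (SD, n = 3 each), nearly coincided. The difference was -0.015 (SE 0.19, 95% interval -0.45 to 0.42). Leaving out Merit40-/- replicate 2, WT replicate 2 or WT replicate 3 turned its sign, at 0.10, 0.017 and 0.13.

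Tek (Entrez Gene 21687, chr4:94739086-94874976), the TIE2 gene, had the lowest difference of the 8. It read 7.43, 7.02 and 6.85 in Merit40-/- cells, against 7.28, 7.41 and 7.09 in WT cells. Merit40-/- replicate 1 was the highest of all 6 arrays, while replicates 2 and 3 lay below all WT arrays. The means were 7.10 ± 0.30 in Merit40-/- and 7.26 ± 0.16 in WT cells (SD, n = 3 each), with a difference of -0.16 (SE 0.17, 95% interval -0.56 to 0.24, adjusted p = 0.999 in limma). Without Merit40-/- replicate 1, the array with muscle markers, the difference was -0.32 (SE 0.15, adjusted p = 0.965 in limma), and without replicate 3 it was -0.033.

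Tie1 (Entrez Gene 21846, chr4:118471191-118489849), which encodes the partner receptor of TIE2, had the highest difference of the 8. It read 8.47, 8.35 and 8.30 in Merit40-/- and 8.33, 8.27 and 7.90 in WT cells. All 3 Merit40-/- arrays lay above the WT mean, but the groups overlapped, and WT replicate 3 alone was clearly low. The means were 8.37 ± 0.089 in Merit40-/- and 8.17 ± 0.23 in WT cells (SD, n = 3 each), with a difference of 0.21 (SE 0.15, 95% interval -0.13 to 0.54, adjusted p = 0.999 in limma). Without WT replicate 3 it was 0.076. The TIE2 gene and the TIE1 gene thus differed in opposite directions, neither beyond the spread of the arrays.

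Angpt1 (Entrez Gene 11600, chr15:42424667-42676977), the gene of the activating TIE2 ligand, was nearly as steady as Kit. It read 10.72, 10.54 and 10.67 in Merit40-/- and 10.55, 10.48 and 10.68 in WT cells. The groups overlapped almost fully and lay far above the low-signal mark. The difference was 0.072 (SE 0.12, 95% interval -0.20 to 0.35), which allows at most a 1.27-fold change. With 1 array left out it ranged from 0.025 without WT replicate 2 to 0.13 without WT replicate 3. Its spread within genotypes stood at the 13.4th percentile of all named genes.

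Angpt2 (Entrez Gene 11601, chr8:18690263-18741562) was read little above the mark and scattered widely, at the 92.0th percentile of spread. Its values were 6.11, 5.58 and 5.19 in Merit40-/- and 5.96, 5.47 and 5.49 in WT cells. The Merit40-/- arrays enclosed the WT arrays. The difference was -0.017 (SE 0.24, 95% interval -0.57 to 0.54), and it was -0.26 without Merit40-/- replicate 1 and 0.20 without replicate 3.

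**Figure D2:**
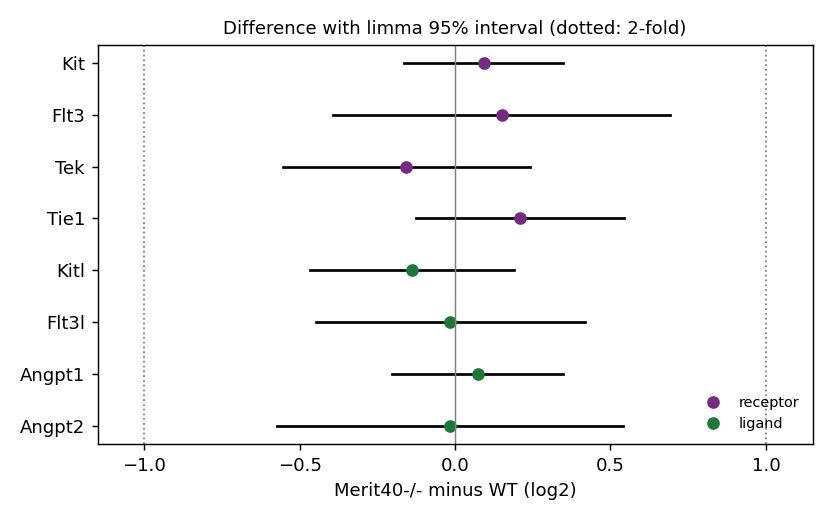
Merit40-/- minus WT difference (x axis, log2) of each gene with its limma 95% interval (n = 3 arrays each); dotted lines mark a 2-fold change. All 8 intervals contain 0 and lie inside the dotted lines, that of Kit being the narrowest at -0.17 to 0.35. The interval of Kitl, read below the low-signal mark, does not bound the change of its transcript.

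The highest and lowest values of these genes gathered on 2 arrays. Merit40-/- replicate 1 gave the highest of the 6 values for 6 of the 8 genes: Kit, Flt3, Tek, Tie1, Angpt1 and Angpt2. Over all named genes 16.1% were highest on that array, and 19.0% of those at or above the low-signal mark. Merit40-/- replicate 3 gave the lowest value for 4 of the 8, Kitl, Flt3, Tek and Angpt2, against 16.5% of all named genes. Relative to the WT mean of each gene, the 8 genes averaged 0.25, -0.022 and -0.15 on Merit40-/- replicates 1, 2 and 3, while the median of all named genes on these arrays was within 0.0078 of 0. Replicate 1 is the array with muscle markers and replicate 3 the one with high Ctsk and Acp5. The average of the HSC markers other than Kit was also highest on replicate 1, at 8.32, 8.14 and 8.07 on the 3 Merit40-/- arrays and 7.89, 8.12 and 8.21 on the WT arrays. Of these 7 markers 4 were highest on replicate 1, Procr and Ctnnal1 on Merit40-/- replicate 2 and Fgd5 on WT replicate 3. The part of these markers in the pattern was not tested. Endothelial markers other than Tie1 averaged 5.22, 5.36 and 5.38 on the 3 Merit40-/- arrays and 5.29, 5.14 and 5.25 on the WT arrays, an average that was not highest on replicate 1. Of these 11 markers 7 lay below the low-signal mark, among them the vascular cadherin gene Cdh5, at 3.52 to 4.23 in Merit40-/- and 3.63 to 3.72 in WT cells. The 4 above it were Emcn, Pecam1, Egfl7 and Sox18, averaging 8.11, 8.09, 7.81 and 5.40 over the 6 arrays. Pecam1 was highest on Merit40-/- replicate 1, Egfl7 on replicate 2, and Emcn and Sox18 on replicate 3. In Merit40-/- cells 7 of the 11 were higher and 4 lower, with Emcn highest at 0.45 (SE 0.19, adjusted p = 0.999 in limma). Stromal markers other than Kitl averaged 4.06 to 4.18 in Merit40-/- and 4.05 to 4.25 in WT cells, with 8 of 11 below the mark. Mast cell markers, relevant because mast cells carry KIT, averaged 3.47 to 3.79 in Merit40-/- and 3.51 to 3.64 in WT cells, with 6 of 7 below the mark. Markers of multipotent progenitors other than Flt3, 4 of 5 measured, averaged 7.60, 7.28 and 7.52 in Merit40-/- and 7.43, 7.53 and 7.43 in WT cells. Mature lineage markers are given with the other observations.

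**Figure D3:**
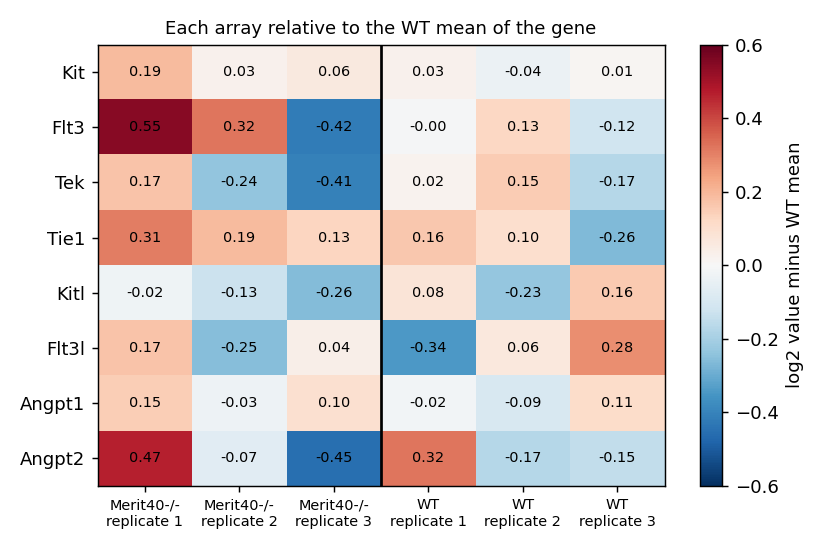
Log2 value of each gene (rows) on each array (columns) minus the mean of the 3 WT arrays for that gene, with red for higher and blue for lower. Merit40-/- replicate 1 is the highest array in 6 of 8 rows, and Flt3 ranges from 0.55 to -0.42 within the Merit40-/- arrays.

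Genes that carry or restrain the signals of these receptors were described from 6 lists with 79 measured genes. Of these, 0 passed the adjusted threshold in limma. The lists were chosen with earlier results of these data known, so shares within them are descriptions and no test of a list. Among the genes listed for restraint of KIT and FLT3, 4 of 18 (22.2%) had an unadjusted p under 0.05, where 4.22% of all named genes did. The same 4 genes had arrays that did not overlap between genotypes, where 9.05% of all named genes did. The list's median difference was 0.048, with 13 of 18 higher and 5 lower. Sh2b3 encodes LNK, an adaptor that dampens KIT and thrombopoietin receptor signalling. It read 8.19, 8.27 and 7.81 in Merit40-/-, against 7.58, 7.55 and 7.37 in WT cells (difference 0.59, SE 0.15, adjusted p = 0.999 in limma). Socs6, whose product binds KIT and FLT3 and promotes their degradation, read 7.20, 6.71 and 6.90 in Merit40-/-, against 6.66, 6.18 and 6.67 in WT cells (difference 0.44, SE 0.18). Grb10, an adaptor that binds several receptor tyrosine kinases, read 8.76, 8.63 and 8.82 in Merit40-/-, against 8.20, 8.25 and 8.58 in WT cells (difference 0.40, SE 0.14). Whether Grb10 restrains KIT or FLT3 was not tested, so its share in the count of 4 rests on its place in the list. Sh2b3, Socs6 and Grb10 were each higher on every Merit40-/- array than on any WT array.

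Dok2, a docking protein that recruits RasGAP to activated receptors, TIE2 included, went the other way. It read 5.79, 6.20 and 6.06 in Merit40-/-, against 6.64, 6.22 and 6.96 in WT cells (difference -0.59, SE 0.20, adjusted p = 0.999 in limma). The next lowest was Sla, an adaptor that promotes receptor turnover, at -0.25 (SE 0.18). The ubiquitin ligase genes Cbl and Cblb, which mark KIT and FLT3 for degradation, differed by 0.049 and 0.089. The phosphatase genes Ptpn6 and Inpp5d differed by 0.19 and 0.21. The count of 4 genes with an unadjusted p under 0.05 was 1 without Merit40-/- replicate 1, the array with muscle markers. That is 5.56% of the list, against 4.89% of all named genes in the same setting. Without Merit40-/- replicate 3 the count was 2, and without WT replicate 2 also 2. These are 11.1% of the list each, against 4.64% and 4.32% of all named genes. The gene left in the first case was Sh2b3, at a difference of 0.54.

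Genes of the signal relay below KIT and FLT3 showed smaller differences. Of 20 measured, 13 were higher and 7 lower, with a median of 0.063. An unadjusted p under 0.05 in limma was reached by 0 of them, where 4.22% of all named genes reached it. The kinase gene Akt2 had the highest difference at 0.37 (SE 0.16), followed by the docking protein gene Gab1 at 0.35 (SE 0.16). Plcg1, a phospholipase of receptor signalling, was the 1 gene of the list (5%) whose arrays did not overlap, where 9.05% of all named genes did not. It read 7.55, 7.24 and 7.38 in Merit40-/- and 7.14, 6.92 and 7.20 in WT cells. The lowest were the kinase gene Src at -0.34 (SE 0.24) and Ptpn11, the gene of the phosphatase SHP2, at -0.19 (SE 0.16). With 1 array left out, Src ranged from -0.57 without WT replicate 3 to -0.16 without WT replicate 2, and Ptpn11 reached -0.049 without Merit40-/- replicate 2. The direct adaptor genes Grb2 and Sos1 differed by 0.11 and 0.056, and the kinase subunit genes Pik3ca and Pik3r1 by 0.051 and 0.085.

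Among 11 measured partners of TIE2, 7 were higher and 4 lower, with a median of 0.039. The arrays of 0 did not overlap between genotypes, where 9.05% of all named genes did not. Grb14, an adaptor of activated TIE2, differed by 0.35 (SE 0.24) and Svep1, a matrix protein that binds TIE1, by 0.20 (SE 0.16). Both lay below the low-signal mark. The flow-responsive transcription factor gene Klf2 differed by -0.16 (SE 0.18), and Ptprb, the phosphatase that opposes TIE2 in endothelium, by -0.14 (SE 0.18), also below the mark. Of the 7 genes of ectodomain release, which free membrane-bound ligands and receptors or restrain that release, 3 were higher and 4 lower, with a median of -0.035. Mmp9, a protease that releases stem cell factor in the marrow, read 6.09, 5.89 and 6.68 in Merit40-/- and 5.89, 5.44 and 5.49 in WT cells. The groups met near 5.89, the difference was 0.61 (SE 0.22, adjusted p = 0.999 in limma), and the highest value fell on Merit40-/- replicate 3, the array with high Ctsk and Acp5. Without that array the difference was 0.38, and the part of osteoclast transcripts in it was not tested. Adam17, a sheddase of many receptors, differed by 0.26 (SE 0.14). The protease inhibitor genes Timp3 and Timp2 differed by -0.23 (SE 0.24) and -0.15 (SE 0.15).

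**Figure D4:**
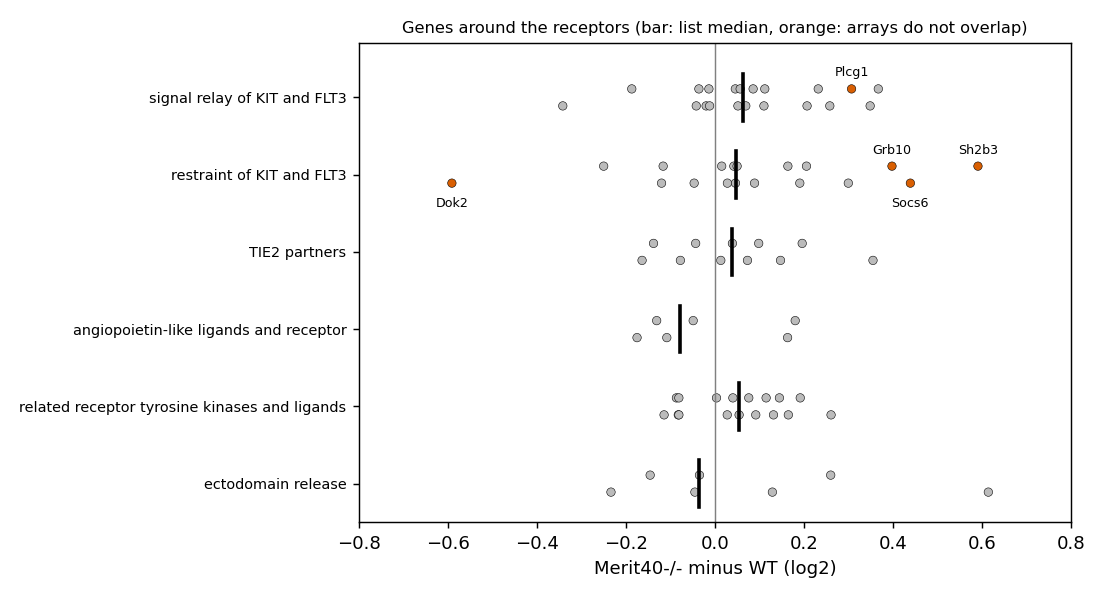
Merit40-/- minus WT difference (x axis, log2) of each measured gene in the 6 lists; bars mark list medians and orange points the genes whose arrays do not overlap between genotypes (n = 3 arrays each). The named orange points are Plcg1 in the relay list and Dok2, Grb10, Socs6 and Sh2b3 in the restraint list, and all medians lie between -0.079 and 0.063.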

How the data were processed

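RNA of sorted HSCs was measured on 6 arrays, 3 per genotype. Per the labels' protocols, the miRNeasy kit gave the RNA, of which the NuGEN Pico kit labelled 50 ng. Each probe set has 1 deposited log2 value per array, for which the submitters' processing notes name RMA and affy. RMA equalises the intensity distribution of the arrays and compresses differences near background. Versions were not given in the sources used here, nor were the chip definition and the build. Of 25206 probe sets, 23185 had 1 gene symbol, 0 several, and 2021 were unnamed here. Genes were fitted in R 4.3.3 by limma 3.58.1 (linear model on genotype alone, empirical Bayes variances, 2-sided, Benjamini-Hochberg over 23185 genes, threshold 0.05), without a filter. The procedure was tested on simulated data. Precision is set by the 6 arrays, with a 95% interval of ±0.342 for the median gene.

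The genes and lists were chosen with earlier results of these data known. Of 89 listed pathway genes, 79 were measured under a symbol. Named genes are the 8 genes, Babam1, and for each list the 2 highest and 2 lowest differences, with the 2 nearest profiles per gene. Plcg1, Grb10, Cbl, Cblb, Ptpn6, Inpp5d, Grb2, Sos1, Pik3ca, Pik3r1, Csf1r, Kdr, Flt1, Flt4, Vegfb, Vegfc and the markers were added for their role or after their values were seen. Gene positions and promoters come from RefSeq (GRCm38.p6). Alternatives were a replicate block, 2 other variance settings, 3 scalings, 2 filters, all probe sets, an unmoderated test, other thresholds and each array left out.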

Additional observations from a re-analysis of the deposited data

How the results depend on the processing

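With 3 arrays per genotype, the median gene had a 95% interval of ±0.342, which limits what could be called. Babam1 stayed the 1 call, lower, under every alternative but the unmoderated test, which called 0 genes (Babam1 at -3.94, adjusted p = 0.168, in limma's fit without moderation). Unadjusted p-values under 0.05 came from 525 genes higher and 454 lower. Of the 8 receptor and ligand genes, 0 were called under every alternative run. Kitl was not tested without the dimmest 30% or 50% of genes. With array weights Flt3l turned to 0.027; the cause was not tested. With a replicate block, 1 gene was called in all and 0 of the 8 (Kit at 0.092, adjusted p = 1.00 in limma). Arrays with the same number did not deviate together (correlations -0.048, -0.0027 and 0.044 across genes), and not every array correlated best with its own number.

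With each array left out in turn, Flt3 ranged from -0.048 to 0.43, Angpt2 from -0.26 to 0.20 and Flt3l from -0.19 to 0.13. Angpt2 was positive without Merit40-/- replicate 2 or 3 or WT replicate 1. The list medians ranged from -0.011 to 0.15 (TIE2 partners), -0.046 to 0.11 (ectodomain release), 0.028 to 0.15 (related receptors), -0.18 to 0.055 (angiopoietin-like) and -0.023 to 0.13 (restraint). In counts chosen after seeing the data, 0 to 1 of the 8 genes had an unadjusted p under 0.05, the 1 being Flt3 without Merit40-/- replicate 3, where 4.64% of all named genes did (3.29% to 4.89% over the 6 settings). The arrays of 1 to 3 of the 8 did not overlap, where 16.9% to 19.6% of all named genes did not. In the restraint list 1 to 4 genes had an unadjusted p under 0.05 and 4 to 9 did not overlap.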

Other observations

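Of 17 measured genes of the colony-stimulating factor, platelet-derived growth factor and vascular endothelial growth factor systems, 10 lay below the low-signal mark of 4.93 and 7 at or above it, Vegfa, Vegfb and Vegfc among them. The macrophage receptor gene Csf1r read 4.16, 4.27 and 4.78 in Merit40-/- and 4.47, 4.41 and 4.25 in WT cells. The vascular receptor genes Kdr, Flt1 and Flt4 averaged 4.31, 3.82 and 3.32 over the 6 arrays. None of the 17 genes passed the adjusted threshold or had an unadjusted p under 0.05 in limma (4.22% of all named genes did), and 12 were higher and 5 lower, with a median of 0.054. Vegfa, the main endothelial growth factor, had the highest difference at 0.26 (SE 0.14), followed by Csf1 at 0.19 (SE 0.15). The macrophage growth factor gene Il34 was lowest at -0.11 (SE 0.22), followed by Pdgfc at -0.087 (SE 0.20).

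Of the 6 measured angiopoietin-like genes and their receptor gene Pirb, 2 were higher and 4 lower, with a median of -0.079, which ranged from -0.18 without WT replicate 1 to 0.055 without WT replicate 2. The extremes were Angptl7 at 0.18 (SE 0.15) and Angptl1 at 0.16 (SE 0.21), against Pirb at -0.18 (SE 0.24) and Angptl8 at -0.13 (SE 0.13). Mature lineage markers, 6 of 8 measured, averaged 6.25, 5.93 and 5.92 in Merit40-/- and 6.02, 5.57 and 5.49 in WT cells, with the T cell gene Cd3e and the B cell gene Cd79a below the low-signal mark. The 4 above it were the myeloid genes Mpo, Elane, Ly6g and Itgam, averaging 8.49, 6.83, 6.59 and 6.52 over the 6 arrays. Of the 6 markers 5 were higher and 1 lower, and Ly6g had the highest difference at 0.81 (SE 0.31, adjusted p = 0.999 in limma). Ly6g read 7.66, 6.97 and 6.35 in Merit40-/-, against 5.88, 6.24 and 6.42 in WT cells, and the groups overlapped. Mpo, Elane and Ly6g were highest on Merit40-/- replicate 1.

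The genes whose 6 values ran nearest to each receptor or ligand gene, after each was centred on its own mean, were named by the root-mean-square gap over the 6 arrays. For Kit these were Shprh (gap 0.0067) and Prpf4b (0.020), against a median gap of 0.20 over the 11593 genes at or above the mark. For Flt3 they were Gramd4 (0.069) and Atrnl1 (0.070), and for Flt3l Sqle (0.039) and Rps6kb2 (0.070). Tek ran nearest to Clpx (0.027) and Olfr248 (0.036), Tie1 to Shtn1 (0.049) and 2510039O18Rik (0.051). Angpt1 ran nearest to Sp1 (0.025) and Usp54 (0.027), and Angpt2 to Entpd1 (0.085) and Phospho1 (0.089). Among the 8 genes themselves the closest pair was Kit and Angpt1, at a gap of 0.059. With 6 arrays and many genes, some profiles lie close whatever the genes do, so these are descriptions.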
